A study of Mus musculus with 20 samples.

Results

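MHC class I presentation was followed through 8 genes in mouse embryonic stem (ES) cells and their differentiated progeny, with and without the de novo DNA methyltransferases Dnmt3a and Dnmt3b. The genes were chosen by symbol: H2-K1, H2-D1, B2m, Tap1, Tap2, Tapbp, Psmb8 and Psmb9. All 8 were among the 18193 genes with a probe set on the MOE430v2 expression arrays. Each gene was read from its brightest probe set over the 20 arrays.

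Class I molecules display peptides from inside the cell to cytotoxic T cells. H2-K1 and H2-D1 encode the classical heavy chains, which reach the cell surface with the light chain beta 2-microglobulin, encoded by B2m. Peptides cut by the proteasome, in which Psmb8 and Psmb9 encode catalytic subunits of the immunoproteasome, are carried into the endoplasmic reticulum by the transporter made of Tap1 and Tap2, and tapasin, encoded by Tapbp, holds the empty heavy chain at that transporter. Most of these genes respond to interferon and NF-kappaB, and ES cells are known for low class I levels at their surface.

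There were 10 groups of 2 arrays, from wild-type (WT) and Dnmt3a-/-Dnmt3b-/- (DKO) cells of the J1 background (129sv/Jae) in 5 states. Each genotype was represented by 1 clone carrying Gata4GR, named J1G4.2 for WT and 16G4.3 for DKO in the labels. The study's methods give the WT clone a longer name that begins in the same way. Gata4GR is Gata4 joined to the hormone-binding part of the glucocorticoid receptor, driven by the CAG promoter and active only with dexamethasone (Dex). ES cells were undifferentiated. Primitive endoderm (PE) cells were ES cells given 100 nM Dex for 4 days. Flk1+ cells were mesoderm sorted for Flk1 and PDGFRα after 4 days on type IV collagen, and Dex- and Dex+ cells were the sorted cells after another 4 days without Dex or with 100 nM of it. Replicate 1 of the Flk1+ cells came from the parental lines J1 (WT) and 16aabb (DKO), which lack the transgene, whereas replicate 2 came from the Gata4GR clones. A genotype effect and a difference between lines cannot be told apart, and Dex also reaches the cells' own glucocorticoid receptor.

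In all 5 states both DKO arrays lay below both WT arrays for Dnmt3a and for Dnmt3b. Replicate arrays correlated over all genes with r from 0.979 in WT Flk1+ cells to 0.996 in WT PE cells. The class I genes were less alike between replicates of the Flk1+ cells: their median gap was 0.78 in WT and 0.96 in DKO on the log2 scale, against 0.23 over all genes in each. Their gap was also wide in DKO ES cells (0.51 against 0.16 over all genes) and DKO PE cells (0.34 against 0.14). In WT PE cells and in Dex- cells of both genotypes it was narrower than over all genes. Of the cell markers, Pou5f1 was at 11.7 to 12.3 in ES cells and Sox17 at 12.8 or more in PE cells. Kdr, which encodes Flk1, was at 11.7 to 12.3 in Flk1+ cells. Not every marker followed the labels. Pou5f1 stood at 9.34 and 9.45 in WT PE cells and at 7.10 and 6.94 in DKO PE cells. Klf4, an ES cell gene, was at 11.16 and 11.39 in WT ES cells and at 12.76 and 12.55 in WT PE cells. In DKO it was at 10.83 and 11.14 in ES cells and at 12.88 and 12.98 in PE cells. The mean of 6 ES cell genes was lower in PE than in ES cells in both genotypes. DKO Dex+ cells stood apart from WT Dex+ cells: Sox17 was at 12.7 and 12.8 in DKO and at 8.85 and 9.49 in WT.

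Upstream sequence is shown for the genes whose levels the results turn on. The letters are RefSeq's for GRCm38.p6, the 250 bases before each start site 5′ to 3′ in the direction of the gene, and were not read from these lines. A window was held for 7 of the 8 genes, all but Tap2. The H2-K1 window lies at chr17:34000348-34000597 on the minus strand, the H2-D1 window at chr17:35262844-35263093 on the plus strand and the B2m window at chr2:122147437-122147686 on the plus strand. For H2-K1, which has 2 annotated start sites, the window of the first is shown. Capitals mark a kappaB-like stretch (GGGATTCCC in the heavy chains, GGGACTTTC on the other strand in B2m) and an interferon-response-like stretch (TTTCACTTC in the heavy chains, GAAANNGAA in B2m).
H2-K1: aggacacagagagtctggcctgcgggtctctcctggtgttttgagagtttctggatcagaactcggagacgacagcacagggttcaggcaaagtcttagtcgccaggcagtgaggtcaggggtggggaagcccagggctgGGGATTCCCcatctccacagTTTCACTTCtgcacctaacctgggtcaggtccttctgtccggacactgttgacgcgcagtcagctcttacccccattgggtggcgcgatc
H2-D1: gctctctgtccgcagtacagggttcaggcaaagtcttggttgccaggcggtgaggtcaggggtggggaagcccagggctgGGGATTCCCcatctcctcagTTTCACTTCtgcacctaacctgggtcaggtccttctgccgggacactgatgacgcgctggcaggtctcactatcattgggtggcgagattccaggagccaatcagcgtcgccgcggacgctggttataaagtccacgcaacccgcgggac
B2m: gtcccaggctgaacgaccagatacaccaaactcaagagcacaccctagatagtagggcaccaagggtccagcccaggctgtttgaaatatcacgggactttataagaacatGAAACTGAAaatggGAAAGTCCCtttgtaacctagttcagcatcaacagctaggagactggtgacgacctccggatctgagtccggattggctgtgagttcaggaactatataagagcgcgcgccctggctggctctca

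The 2 heavy chain windows carried the same letters in the same order. GGGATTCCC, searched on both strands, was held by 99 of 32851 windows of this length (0.301%), and TTTCACTTC by 132 (0.402%). Both were chosen after the windows were seen. Of 95 symbols with the first motif and 129 with the second, 5 had both, H2-K1, H2-D1, H2-Q6, H2-Q7 and Gm33448. The H2-K1 and H2-D1 windows aligned over 177 positions, of which 161 (91.0%) were identical, and shared an unbroken run of 47 bases. GGGACTTTC was in 0.289% of all windows and GAAANNGAA in 7.129%. These are matches of letters and no measure of binding.

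Tap1 and Psmb9 lie head to head. The bases between their start sites are 225 in number, at chr17:34187331-34187555, written here on the plus strand, the direction of Tap1, with no capitals because none of the 4 motifs above was found in it.
Psmb9 to Tap1: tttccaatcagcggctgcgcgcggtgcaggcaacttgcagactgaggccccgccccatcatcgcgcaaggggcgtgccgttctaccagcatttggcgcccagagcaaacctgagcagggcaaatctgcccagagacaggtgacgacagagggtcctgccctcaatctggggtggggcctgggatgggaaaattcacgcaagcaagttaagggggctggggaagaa

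The stretch held 12 CpG sites. The single windows held 9 CpG sites in H2-K1, 14 in H2-D1, 8 in B2m, 10 in Tapbp and 10 in Psmb8, against a median of 6 over all windows. TGACG, the core of the site bound by CREB-family factors, was in the windows of H2-K1, H2-D1, B2m, Tap1 and Psmb9 and in 17.765% of all windows. The Tap1 and Psmb9 matches are the same bases of the shared stretch, read on opposite strands, and the heavy chain windows are largely alike. TTCNNNGAA, the form of a STAT site, was in that of Psmb8 and in 7.02% of all. Methylation was not measured on these arrays.

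The level of the heavy chains separated the genotypes after culture. Levels are log2 RMA values, and since each probe set has its own brightness they are compared between arrays and not between genes. In WT Dex- cells H2-K1 was at 7.17 and 7.22 and in DKO Dex- cells at 9.46 and 9.42. H2-D1 was at 6.70 and 6.65 in WT and at 9.53 and 9.23 in DKO. For both genes the WT Dex- arrays were the lowest of all 20, and the DKO Dex- arrays lay above both arrays of WT ES cells.

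H2-K1 was thus 4.75-fold higher in DKO Dex- cells (2.25 on the log2 scale, SE 0.28, 95% interval 1.65 to 2.85, limma adjusted p = 8.36e-05). H2-D1 was 6.52-fold higher (2.70, SE 0.24, interval 2.19 to 3.22, limma adjusted p = 3.43e-06). A gene is called changed here if it differed by at least 2-fold with a limma p under 0.05 after Benjamini-Hochberg adjustment over all 18193 genes. In Dex- cells 2 of the 8 class I genes were called higher in DKO and none lower, where 3.51% of all genes were called higher. In bulk RNA, fewer cells making a transcript and less of it in each cell cannot be told apart.

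The other 6 genes were not called between the genotypes in Dex- cells. B2m stood at 12.29 and 12.35 in WT, its highest group, and at 11.61 and 11.64 in DKO, a difference of -0.70 for the light chain that did not pass the test (SE 0.31, limma adjusted p = 0.19). The arrays did not overlap. Tap1 stood at 7.48 and 8.03 in WT and at 7.16 and 7.26 in DKO (-0.54, SE 0.31). Differences of Tap2, Tapbp, Psmb8 and Psmb9 were from 0.21 to 0.28, the intervals of all 4 spanning 0.

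With Dex the same 2 heavy chains were called higher in DKO, in cells that also differed from WT in their markers, as given below. H2-K1 was at 8.32 and 8.82 in WT Dex+ cells and at 9.96 and 9.90 in DKO (1.36, SE 0.28, limma adjusted p = 0.0028). H2-D1 was at 8.60 and 8.35 in WT and at 10.02 and 10.08 in DKO (1.57, SE 0.24, limma adjusted p = 0.00027). Tap1 went the other way, at 8.05 and 8.49 in WT and at 5.81 and 6.05 in DKO, a 5.07-fold lower level (-2.34, SE 0.31, limma adjusted p = 7.48e-05). These 3 of 8 genes compare with 9.65% of all genes called in either direction. DKO Dex+ held the lowest Tap1 level of the 10 groups and WT Dex+ the highest.

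**Figure D1:**
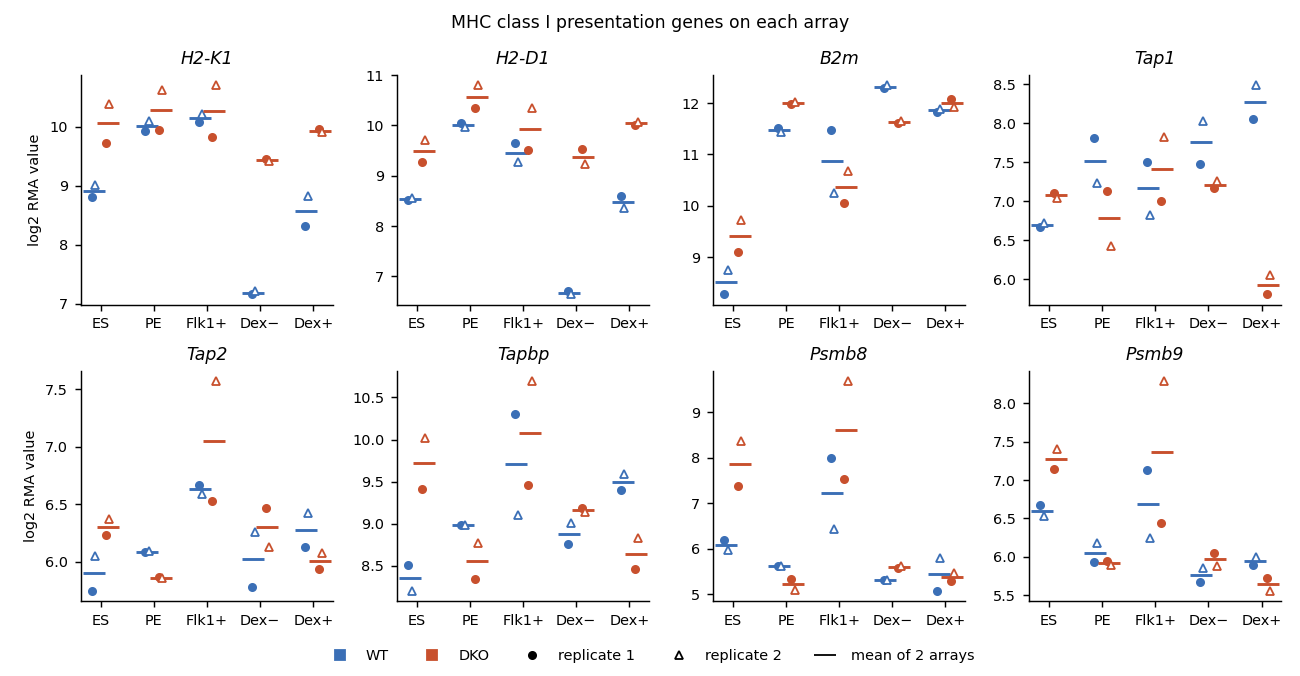
Level of each class I presentation gene on all 20 arrays (vertical axis, log2 RMA value of its brightest probe set, scaled for each gene) in the 5 states (horizontal axis), WT in blue and DKO in red, with circles for replicate 1, triangles for replicate 2 and a bar for the mean of 2 arrays. H2-K1 and H2-D1 are lowest in WT Dex- cells (means 7.19 and 6.68), and the replicates of Flk1+ cells lie far apart for Tapbp, Psmb8 and Psmb9.

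The arrays hold 14 probe sets for H2-K1, H2-D1 or both together, and 12 of these bear a suffix of the platform for probes that may bind related transcripts. Of the 8 that were brighter than the median probe set (5.87), all were higher in DKO Dex- cells, by 0.20 to 2.89, and 7 by at least 2-fold. The 6 dimmer ones differed by -0.07 to 1.43. The probe set shared by both heavy chains was at 4.76 and 4.90 in WT and at 6.75 and 6.66 in DKO. A further pair of probe sets, which H2-K1 or H2-D1 shares with other genes, differed by -0.15 and -0.20 and are not among the 14. In Dex+ cells the brighter 8 were higher in DKO by 0.34 to 1.57, and 6 of them by at least 2-fold. The brightest H2-D1 probe set without that suffix gave 1.34 in Dex- cells (limma adjusted p = 0.0054) and 0.79 in Dex+ cells (limma adjusted p = 0.067), so the second was no longer called. H2-K1 has no such probe set, and how much of its signal comes from other heavy chains was not tested. Over the mean of all probe sets of a gene the Dex- differences were 1.59 for H2-K1 and 1.01 for H2-D1, and the Dex+ differences fell under 2-fold, at 0.93 for H2-K1 and 0.68 for H2-D1.

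**Figure D2:**
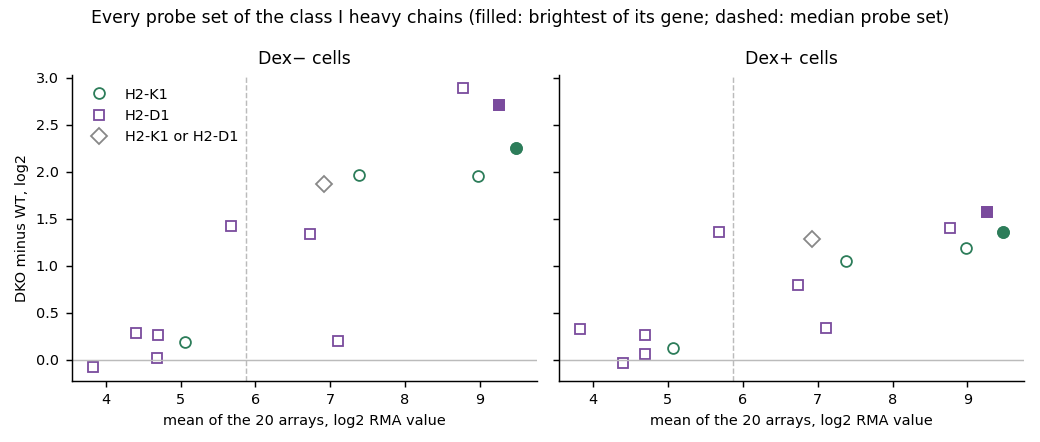
Difference between DKO and WT (vertical axis, log2) of each of the 14 heavy chain probe sets against its mean over 20 arrays (horizontal axis, log2 RMA value), in Dex- cells (left) and Dex+ cells (right); filled symbols are the brightest probe set of each gene and the dashed line is the median probe set. Brighter probe sets lie higher, with 7 of the 8 beyond the dashed line above 1 in Dex- cells.

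The Dex- arrays were scanned on 2 days, each with 1 array per genotype. Within the days the H2-K1 difference was 2.29 and 2.21 and that of H2-D1 2.83 and 2.58. All Dex+ arrays were scanned on 1 day. Markers of other cells also differed between the genotypes. Of 7 genes of blood cells and macrophages, Cd68 (2.41) and Csf1r (1.94) were called higher in DKO Dex- cells. The mean of the list was 5.86 to 5.96 in WT Dex- arrays and 6.60 to 6.71 in DKO. Ptprc, the pan-leukocyte antigen CD45, stayed between 3.59 and 4.52 on all 20 arrays, and Spi1, a master factor of macrophages, between 5.71 and 6.04. The mean of 6 ES cell genes was 5.57 to 5.75 in WT and 6.39 to 6.4 in DKO Dex- cells, with Zfp42 at 4.08 and 4.51 against 7.25 and 6.99, and that of 6 endothelial genes 5.68 to 5.70 and 6.17 to 6.33. Pdgfra was at 6.53 and 6.79 in WT against 8.91 on both DKO arrays. The mean of 6 fibroblast genes was 9.65 to 10.00 in WT and 8.81 to 9.08 in DKO Dex- cells, and that of 6 mural cell genes 9.89 to 10.12 and 10.39 to 10.98. The part of these cell mixtures in the heavy chain difference was not tested.

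The step from sorted Flk1+ cells to Dex- cells was then compared between the genotypes. It sets separate groups side by side, with the parental lines among the Flk1+ arrays only. How the genotype difference arose was not tested. In WT, H2-K1 went from 10.08 and 10.21 in Flk1+ cells to 7.17 and 7.22 in Dex- cells, a 7.74-fold fall (-2.95, SE 0.28, limma adjusted p = 1.70e-06). H2-D1 went from 9.65 and 9.27 to 6.70 and 6.65, a 6.89-fold fall (-2.78, SE 0.24, limma adjusted p = 7.01e-07). WT arrays of both genes were clear of each other between the states. All 14 heavy chain probe sets were lower, and the 8 brighter ones differed by -2.95 to -1.14. In DKO, H2-K1 went from 9.83 and 10.70 to 9.46 and 9.42 (-0.82, SE 0.28, limma adjusted p = 0.035), a step under 2-fold, and H2-D1 from 9.51 and 10.35 to 9.53 and 9.23 (-0.55, SE 0.24, limma adjusted p = 0.10).

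The steps of the genotypes differed by 2.13 for H2-K1 (SE 0.40, interval 1.28 to 2.98, limma adjusted p = 0.0069) and by 2.23 for H2-D1 (SE 0.34, interval 1.5 to 2.96, limma adjusted p = 0.0017). No other of the 8 genes passed this test of the difference, which called 1.82% of all genes in this direction. Fitted on the 8 arrays of the 4 groups alone, the adjusted p rose to 0.060 and 0.065, and neither was called. On the brightest H2-D1 probe set without the suffix the WT step was -1.60 and the difference 1.06 (limma adjusted p = 0.21), not called, and over the mean of its probe sets the difference was 0.88, under 2-fold. On the 1 day that held both states, which pairs parental-line Flk1+ cells with Dex- cells of the clones, the WT step was -2.91 for H2-K1 and -2.95 for H2-D1, and the DKO step was -0.37 and 0.02.

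The light chain rose at this step in both genotypes, whereas the fall of the heavy chains was called in WT only. B2m went from 11.48 and 10.25 in WT Flk1+ cells to 12.29 and 12.35 (1.45, SE 0.31, limma adjusted p = 0.0022) and from 10.06 and 10.68 in DKO to 11.61 and 11.64 (1.25, SE 0.31, limma adjusted p = 0.0057). It was called in both genotypes, but fell under 2-fold in WT without the replicate 2 Flk1+ array (0.84) and in DKO without the replicate 1 Flk1+ array (0.94). Psmb8 fell 3.73-fold in WT (-1.90, SE 0.55, limma adjusted p = 0.016) and 8.04-fold in DKO (-3.01, SE 0.55, limma adjusted p = 0.00059). The second Psmb8 probe set, dim at a mean of 3.71, gave -0.15 in WT and -0.45 in DKO. Psmb9, the partner subunit of Psmb8, fell in DKO (-1.39, SE 0.40, limma adjusted p = 0.014) and stood at -0.93 in WT (limma adjusted p = 0.10). The Psmb8 call in WT was lost without the parental-line array (-1.13) or either Dex- array (-1.90 and -1.89), and the Psmb9 call in DKO without the Flk1+ array of the clone (-0.47) or either Dex- array (-1.48 and -1.31). With only the arrays compared the WT calls of B2m and Psmb8 (limma adjusted p = 0.073 and 0.060) and the DKO call of Psmb9 (0.13) were lost. In all, 1 gene rose and 3 fell in WT, where 15.3% of all genes were called in either direction, and 1 rose and 2 fell in DKO, where 16.6% were.

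Other genes of the route were counted beside these. Of 9 genes of peptide processing and loading, Psme1 (-1.46), Psmb10 (-1.49) and Erap1 (-1.15) fell in WT at this step and none was called in DKO, but none of the 9 passed the test of the difference between the genotypes. Psme1 encodes a proteasome activator, Psmb10 the remaining immunoproteasome subunit and Erap1 the aminopeptidase that trims peptides. Of 20 regulators of interferon and class I genes, Socs3 (-2.79), Irf1 (-1.23) and Creb1 (-1.22) fell in WT and Ifngr2 rose (1.14). In DKO Creb1 fell (-1.36) and Ifngr2 (1.09), Rela, Jak1 and Jak2 rose. Of the 20, Socs3 alone passed the test of the difference (2.54). These counts stand beside the 15.3% of all genes called in WT and 16.6% in DKO. Irf1, an activator of class I promoters, was at 8.55 and 8.44 in WT Dex- cells and at 9.83 and 10.48 in DKO (1.66, SE 0.33, limma adjusted p = 0.0039). In Dex+ cells, where the heavy chains were also higher in DKO, Irf1 was at 8.45 and 8.38 in WT and at 8.79 and 8.80 in DKO and was not called (0.38, limma adjusted p = 0.55). Its part in the heavy chain levels was not tested. Nlrc5, the class I transactivator, lay between 4.11 and 5.06 on all 20 arrays. Other listed genes also stood apart in Dex- cells, given here as levels. Erap1 was at 6.08 and 6.03 in WT and at 7.67 and 7.78 in DKO. Ifi35 was higher in DKO too (8.75 and 9.11 against 10.7 and 11.0). Ifit2 was lower (8.03 and 8.30 against 6.17 and 6.49). The mean of 18 interferon-stimulated genes was 6.17 to 6.29 in WT and 6.53 to 6.55 in DKO. The part of these genes in the heavy chain levels was not tested.

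**Figure D3:**
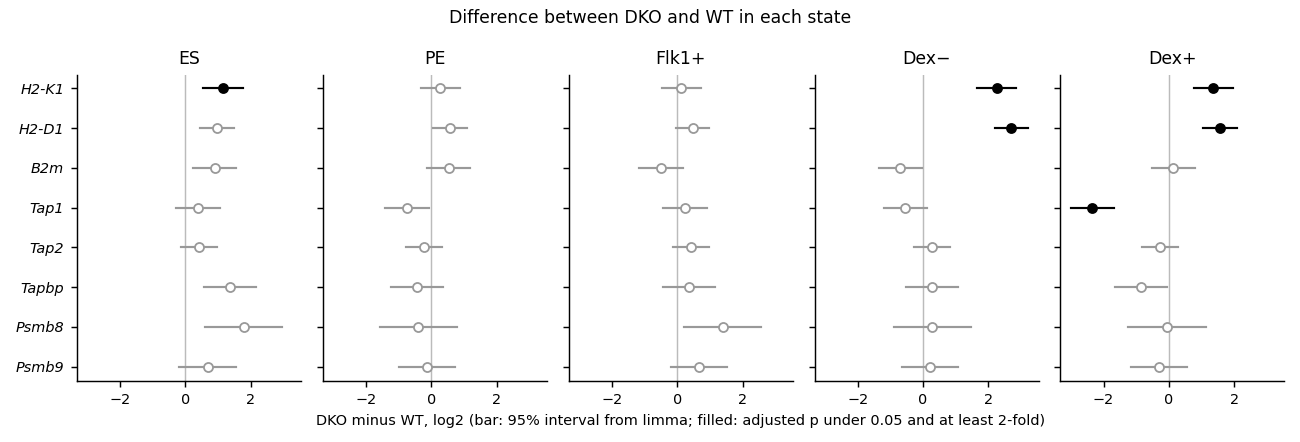
Difference between DKO and WT (horizontal axis, log2) of the 8 genes in each of the 5 states, with 95% intervals from limma as bars; filled points were called. Filled points are H2-K1 in ES, Dex- and Dex+ cells, H2-D1 in Dex- and Dex+ cells, and Tap1 to the left in Dex+ cells (-2.34).

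Dex raised the heavy chains of WT mesoderm. From Dex- to Dex+ cells H2-K1 rose 2.60-fold in WT (1.38, SE 0.28, limma adjusted p = 0.015) and H2-D1 3.48-fold (1.80, SE 0.24, limma adjusted p = 0.00055). These were 2 of the 8 genes, and 1.15% of all genes were called higher. All 14 heavy chain probe sets were higher, by 0.09 to 2.07. The H2-D1 call was lost on the brightest probe set without the suffix (0.71, limma adjusted p = 0.30) and over the mean of its probe sets (0.71). The H2-K1 call was lost without either Dex- array or without replicate 2 of Dex+ (1.13 to 1.40), with scan day as a block (1.22, limma adjusted p = 0.060) and with only the arrays compared (limma adjusted p = 0.051). In DKO the same step was 0.49 for H2-K1 and 0.67 for H2-D1, and neither was called. The difference between the genotypes' steps did not pass the test for H2-D1 (-1.13, SE 0.34, limma adjusted p = 0.062) or H2-K1 (-0.89, SE 0.40, limma adjusted p = 0.24). Within the 1 scan day that held both states, the WT steps were 1.35 and 1.83.

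Tap1 fell with Dex in DKO and did not pass the test in WT. It stood at 7.48 and 8.03 in WT Dex- cells and at 8.05 and 8.49 in WT Dex+ cells (0.52, SE 0.31, limma adjusted p = 0.61). In DKO it went from 7.16 and 7.26 to 5.81 and 6.05 (-1.28, SE 0.31, limma adjusted p = 0.0085), the only gene of the 8 called at this step in DKO, where 4.99% of all genes were called lower. Both DKO Dex+ arrays lay below the other 18 arrays. The difference of the steps was -1.80 (SE 0.44, interval -2.74 to -0.86, limma adjusted p = 0.022), a test that called 3.13% of all genes in this direction. The call was lost in leave-one-out fits without either DKO Dex- array, either DKO Dex+ array, replicate 1 of WT Dex- or replicate 2 of WT Dex+, with differences from -1.52 to -1.92. The call of the DKO step was lost without replicate 2 of Dex- (-1.23) or replicate 1 of Dex+ (-1.16). The gene's 3 other probe sets, with means of 3.76 to 4.86, differed by -0.08 to 0.23 between DKO and WT Dex+ cells, so the fall rests on 1 probe set, with a mean of 7.18. Psmb9, across the shared stretch printed above, stood at 5.89 and 6.0 in WT and at 5.73 and 5.56 in DKO Dex+ cells (-0.30, SE 0.40).

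DKO Dex+ cells also differed from WT in their cell markers. Of 7 primitive endoderm markers 5 were called higher, among them Pdgfra, Sox17 and Lama1, and the list mean was 12.4 to 12.5 against 9.93 to 10.15 in WT. Of 6 fibroblast genes 4 fell, with list means of 6.12 to 6.21 against 9.10 to 9.11, and of 6 mural cell genes 4 fell, with 7.93 to 8.25 against 10.0 to 10.3. In PE cells, where Tap1 was at 7.81 and 7.23 in WT and at 7.13 and 6.43 in DKO, the DKO arrays were lower as well (-0.74, SE 0.31, limma adjusted p = 0.29). In WT PE cells H2-K1 was at 9.93 and 10.09 and H2-D1 at 10.04 and 9.98, near the levels of DKO Dex+ cells. The part of the cell mixture in the Tap1 level and in the heavy chain levels of Dex+ cells was not tested.

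In ES cells every class I gene stood higher in DKO. Both DKO arrays lay above both WT arrays for 8 of 8 genes, where this held for 22.4% of all genes. Only H2-K1 was called, reading 8.80 and 9.02 in WT against 9.72 and 10.38 in DKO (1.14, SE 0.28, limma adjusted p = 0.047), where 1.12% of all genes were called higher. That call was lost without replicate 1 or 2 of WT or replicate 2 of DKO (0.81 to 1.25) and over the mean of its probe sets (0.79). With scan day as a block, quantile normalization or median centring the limma adjusted p was 0.050, 0.053 and 0.072, and the gene was not called. H2-D1 was at 8.51 and 8.55 in WT and at 9.28 and 9.70 in DKO (0.96, limma adjusted p = 0.052). Tapbp was at 8.51 and 8.21 against 9.42 and 10.01 (1.35, limma adjusted p = 0.085). The other members, from the immunoproteasome subunit to the light chain, were above WT without passing the test. Psmb8 was at 6.20 and 5.98 against 7.37 and 8.36 (1.78, SE 0.55, limma adjusted p = 0.14). That SE is pooled over all groups, and the gene's spread was widest in Flk1+ cells (SD 1.09 in WT and 1.51 in DKO). The dim second probe set of Psmb8 differed by 0.01, and the second of Tapbp by 0.82. B2m was at 8.28 and 8.75 against 9.10 and 9.71 (0.89), and Tap1, Tap2 and Psmb9 differed by 0.38 to 0.68. The median over the 8 genes was 0.93, against -0.00 over all genes. In each of these pairs except Tap1 replicate 2 of DKO was the highest array.

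Some genes that respond to interferon were higher in the same DKO ES cells. Of 18 measured, Gbp3 (3.52), Irgm1 (2.84), Igtp (1.53) and Cxcl10 (1.21) were called higher and none lower, and the other 14 were not called. The mean over the 18 was 5.93 to 5.96 in WT and 6.72 to 7.15 in DKO. Replicate 2 was again the higher DKO array. Erap1 was the 1 of 9 processing genes called (1.93, SE 0.41, limma adjusted p = 0.020). None of the 20 regulators was, with Irf1 at 10.1 and 9.93 in WT, against 11.02 and 11.52 in DKO. None of the 14 subunits of the standard proteasome core and none of 7 class II genes was called in any of the 17 comparisons. Markers of other cells moved with the same arrays: the mean of 6 mural cell genes was 6.28 to 6.29 in WT ES cells against 6.96 to 7.06 in DKO, with Acta2 called higher (9.07 and 9.32 against 10.86 and 11.20), and that of 6 fibroblast genes 5.17 to 5.21 against 5.75 to 5.83, with none called. The part of the interferon-responsive genes or of other cells in the class I levels was not tested.

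Other heavy chains were only partly measurable. Of 21 listed, 8 had a probe set of their own, and none was called between the genotypes in ES cells. H2-M3, a nonclassical heavy chain, was called higher in DKO Dex- cells (1.69, SE 0.21, limma adjusted p = 8.51e-05), at 8.53 and 8.82 against 6.96 and 7.02 in WT. H2-Q2 was called lower in DKO PE cells (-2.55), as was H2-Q10 (-1.27). A probe set shared by H2-T9, H2-T22 and H2-T10 read 7.0 and 6.46 in WT ES cells against 8.29 and 8.85 in their DKO counterparts, and 5.08 and 4.99 against 6.50 and 6.75 in PE cells. Its arrays did not overlap in either state, whereas the other probe set of these genes differed by 0.20 and 0.00. Between the genotypes, class I-like genes outside the complex gave 1 call of 5, Cd1d1 in Dex- cells (1.17). Between states Cd1d1 moved further, from 8.49 and 8.60 in WT ES cells to 7.04 and 6.86 in WT Flk1+ cells.

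The light chain was higher in primitive endoderm than in ES cells in both genotypes. B2m rose 7.79-fold in WT, from 8.28 and 8.75 to 11.52 and 11.44 (2.96, SE 0.31, limma adjusted p = 4.18e-06), and 6.06-fold in DKO, from 9.10 and 9.71 to 11.99 and 12.02 (2.60, SE 0.31, limma adjusted p = 1.17e-05). Its second probe set gave 2.45 and 2.02. The heavy chains joined this rise in WT, and H2-D1 alone of them in DKO. H2-D1 went to 10.04 and 9.98 in WT (1.48, SE 0.24, limma adjusted p = 0.00025) and to 10.34 and 10.80 in DKO (1.08, SE 0.24, limma adjusted p = 0.0026). H2-K1 went in WT to 9.93 and 10.09 (1.10, SE 0.28, limma adjusted p = 0.0076) and stood at 9.94 and 10.62 in DKO (0.23, SE 0.28). The H2-K1 call was lost without replicate 1 of WT ES (0.99) or replicate 2 of WT PE (1.02), and the H2-D1 call in DKO without replicate 1 of ES (0.87) or replicate 2 of PE (0.85). With chip lot as a block both these calls were lost (0.82, limma adjusted p = 0.11, and 0.97, limma adjusted p = 0.061). ES and PE arrays shared no chip lot. The block therefore draws on the Flk1+ pairs, where lot changed together with line and scan day. On the H2-D1 probe set without the suffix the rise was 0.65 in WT (limma adjusted p = 0.10) and 0.69 in DKO (limma adjusted p = 0.078), neither called, and over the mean of all probe sets no heavy chain passed 2-fold.

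The immunoproteasome and tapasin fell in DKO at the same step. Psmb8 went from 7.37 and 8.36 to 5.35 and 5.09, a 6.28-fold fall (-2.65, SE 0.55, limma adjusted p = 0.0016). Psmb9 went from 7.14 and 7.41 to 5.94 and 5.89 (-1.36, SE 0.40, limma adjusted p = 0.017), and Tapbp from 9.42 and 10.01 to 8.34 and 8.77 (-1.16, SE 0.38, limma adjusted p = 0.026). The second probe set of Psmb8, dim at a mean of 3.71, gave -0.30, and that of Tapbp -0.95, under 2-fold. The Tapbp call was lost without DKO ES replicate 2 (-0.86) or DKO PE replicate 1 (-0.95) or with chip lot as a block (-1.10, limma adjusted p = 0.20), and that of Psmb9 without DKO ES replicate 2 or either DKO PE array (-1.38 to -1.23). In WT these 3 genes changed by -0.47, -0.55 and 0.63 and were not called. DKO thus had 2 genes up and 3 down of 8, where 16.3% of all genes were called in either direction, and WT had 3 up, where 7.68% were called higher.

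The difference between the genotypes at this step was negative for all 8 genes, from -0.36 for B2m to -2.18 for Psmb8, and called for none (1.36% of all genes were). Tapbp was nearest (-1.79, SE 0.53, interval -2.92 to -0.65, limma adjusted p = 0.17). Each genotype's step includes the ES arrays in which DKO stood higher. Within PE cells none of the 8 was called between the genotypes, where 1.96% of all genes were, and differences ran from -0.74 for Tap1 to 0.56 for H2-D1. Cell markers differed there too. The mean of 6 ES cell genes was 9.59 to 9.72 in WT PE cells and 7.86 to 8.04 in DKO. That of 7 genes of blood cells and macrophages was 5.80 to 5.92 in WT and 6.52 to 6.55 in DKO. That of 7 primitive endoderm markers was 12.87 in WT and 13.1 to 13.2 in DKO. The part of the cell mixture in the class I levels of PE cells was not tested. Among interferon-stimulated genes 8 of 18 fell in DKO between ES and PE cells, among them Gbp2 (-4.57), Irgm1 (-3.83) and Gbp3 (-3.66), and 1 rose, Xaf1. In WT 2 of 18 fell. The chaperones of heavy chain folding Calr (1.62 in WT, 1.17 in DKO) and Pdia3 (1.18 and 1.49) rose in both. ES and PE cells shared no scan day and no chip lot, so this step cannot be told apart from day or lot.

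**Figure D4:**
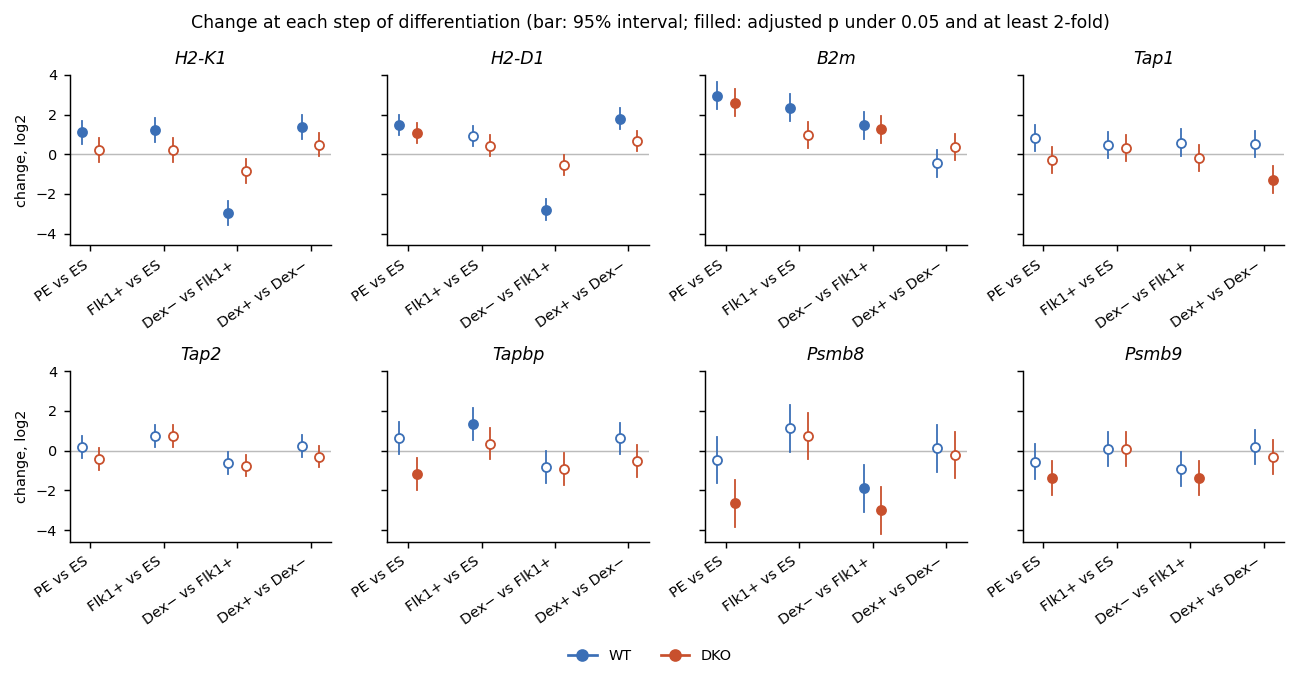
Change of each gene (vertical axis, log2, with the 95% interval from limma) at the 4 steps from ES to PE cells, ES to Flk1+ cells, Flk1+ to Dex- cells and Dex- to Dex+ cells, WT in blue and DKO in red; filled points were called. B2m is above 0 in both genotypes at the first 3 steps, while H2-K1 (-2.95) and H2-D1 (-2.78) fall from Flk1+ to Dex- cells in WT.

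From ES to Flk1+ cells B2m rose in WT 5.11-fold (2.35, SE 0.31, limma adjusted p = 4.66e-05), Tapbp 2.54-fold (1.35, SE 0.38, limma adjusted p = 0.015) and H2-K1 2.35-fold (1.24, SE 0.28, limma adjusted p = 0.0041). These were 3 of 8, with 6.15% of all genes called higher. The Tapbp call was lost without the parental-line array (0.75), without replicate 2 of WT ES (1.19), with only the arrays compared (limma adjusted p = 0.092) or over the mean of its probe sets (0.92), where H2-K1 too was under 2-fold (0.87). In DKO none of the 8 was called, where 10.2% of all genes were. B2m came nearest (0.97, SE 0.31, limma adjusted p = 0.038), under the 2-fold limit. The difference of the steps called none of the 8 and 0.792% of all genes, with B2m at -1.39 (SE 0.44, limma adjusted p = 0.22). These arrays too shared no scan day with ES cells.

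In sorted Flk1+ cells no genotype difference of the 8 genes passed the test, and the arrays within each genotype diverged. None of the 8 genes was called between DKO and WT and none had arrays that did not overlap, where 0.698% and 32.9% of all genes did. Psmb8 was at 7.99 in the WT parental line and 6.45 in the WT Gata4GR clone, and at 7.54 and 9.68 in the DKO lines in the same order. Tapbp was at 10.31 and 9.11 in WT and at 9.46 and 10.69 in DKO. Psmb9 was at 7.13 and 6.25 in WT and at 6.43 and 8.29 in DKO. In WT the parental line was thus the higher of the pair and in DKO the lower.

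The same order held for Tap1, at 7.51 and 6.82 in WT and at 7.0 and 7.82 in DKO, and for B2m, at 11.48 and 10.25 against 10.06 and 10.68. It also held for interferon-stimulated genes: Gbp3 was at 8.95 and 6.47 in WT and at 7.59 and 10.86 in DKO, and the mean of 18 such genes at 7.42 and 6.05 against 6.38 and 6.97. Psmb10 was at 9.0 and 8.41 against 7.59 and 9.91. H2-K1 was the exception, at 10.08 and 10.21 in WT, against 9.83 and 10.70 in DKO. Line, scan day and chip lot changed together between these replicates and cannot be told apart. Cell markers differed too. In the same order, the mean of 6 fibroblast genes was 7.08 and 5.50 in WT and 5.78 and 5.56 in DKO. That of 6 mural cell genes was 8.37 and 7.51 in WT and 8.22 and 9.04 in DKO. The part of the cell mixture in these gaps was not tested. Between the Gata4GR clones alone, with 1 array each, DKO minus WT ran from 0.43 for B2m to 3.23 for Psmb8. H2-D1 stood at 1.08, Tapbp at 1.58 and Psmb9 at 2.04. Between the parental lines alone the differences ran from -1.42 for B2m to -0.14 for H2-D1. These are differences of single arrays and hold no spread.

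**Figure D5:**
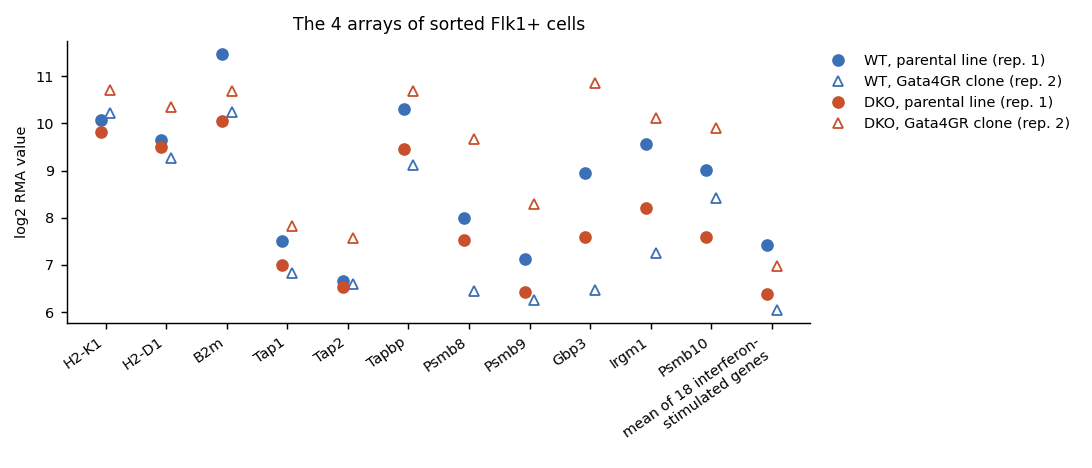
Level (vertical axis, log2 RMA value) on each of the 4 arrays of sorted Flk1+ cells for the 8 class I genes, Gbp3, Irgm1, Psmb10 and the mean of 18 interferon-stimulated genes; circles are the parental lines (replicate 1) and triangles the Gata4GR clones (replicate 2), WT in blue and DKO in red. For Psmb8 the clones lie at 6.45 (WT) and 9.68 (DKO), with the parental lines between them at 7.99 and 7.54.

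Across the 10 groups the 8 genes fell into patterns that overlapped only in part. H2-K1 was highest in DKO PE cells (10.28) and lowest in WT Dex- cells (7.19), but its first 6 groups in order, DKO PE, DKO Flk1+, WT Flk1+, DKO ES, WT PE and DKO Dex+, each overlapped the next within the spread of their arrays. H2-D1 had the same highest and lowest groups, at 10.57 and 6.68. B2m was highest in WT Dex- cells (12.32) and lowest in WT ES cells (8.51). Tap1 ranged from 8.27 in WT Dex+ to 5.93 in DKO Dex+ cells. Tap2 (7.05), Tapbp (10.08), Psmb8 (8.61) and Psmb9 (7.36) were each highest in DKO Flk1+ cells, whose arrays overlapped those of the next group.

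The span between highest and lowest group was 3.90 for H2-D1, 3.81 for B2m, 3.39 for Psmb8, 3.09 for H2-K1, 2.34 for Tap1, 1.72 for Psmb9 and Tapbp, and 1.19 for Tap2. Tap2 was called in none of the 17 comparisons and H2-K1 in 8. Dimmer probe sets show a smaller part of a true change, so spans are not set against each other.

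Over the 10 group means, H2-K1 and H2-D1 were the nearest of 8615 genes with a span of at least 2-fold to each other (Pearson r = 0.96). Their probes may bind each other's transcripts, as given above. Psmb8 and Psmb9 had r = 0.96 and Tapbp and Tap2 r = 0.91. For B2m the nearest genes were Efhd2, Cnih1 and Tor1aip1 (r = 0.98 each), with r of -0.21 to H2-K1 and -0.04 to H2-D1. Tap1 was nearest to Htra2 (r = 0.86), Tap2 to Mmp9 (r = 0.95) and Psmb8 to Myrfl (r = 0.98). These values describe 10 points that share clones, scan days and normalization. Of 20 genes neighbouring the 8 on their chromosomes and not members, 2 were called between DKO and WT in Dex- cells, Terb2 (1.46) near B2m and Pou5f1 (1.11) near H2-D1.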

How the data were processed

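RNA of 10 groups of 2 biological replicates was labelled in 2 cycles from 50 ng and hybridised to MOE430v2 arrays. The deposited values are log2 signals that the authors made with RMA (background correction, quantile normalization and summarising of probes), with the version not given in the sources used here. Array number, not depth, limits precision.

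Of 45101 probe sets, 34945 had 1 gene symbol in the platform annotation, 932 several and 9224 none. The brightest probe set over the 20 arrays stood for each of 18193 genes. limma 3.58.1 (R 4.3.3) fitted 1 mean per group over all arrays, with 10 residual and 4.54 prior degrees of freedom, for 13 comparisons of 2 groups and 4 differences between genotypes, with Benjamini-Hochberg adjustment within each comparison. Genes were called at an adjusted p under 0.05 and at least 2-fold. With 2 arrays against 2, a two-sided exact permutation test cannot go below p = 0.333, so none is given. The script was tested on simulated data. Members, gene lists and tests were chosen with earlier results of these data known. All 8 members are named, other genes where a list called them or an account needs them, with some chosen after their values were seen. Scan day and chip lot were read from the experiment file of each array. Upstream windows came from RefSeq. The alternatives were other probe set rules, scalings, filters, blocks, variance models and thresholds, and fits without single arrays or lines.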

Additional observations from a re-analysis of the deposited data

Results flagged for a closer look

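Of the 4 tests of a difference between the genotypes' steps, 3 gene results passed. The step from Flk1+ to Dex- cells differed by 2.13 for H2-K1 (DKO minus WT, log2, SE 0.40, limma adjusted p = 0.0069), with -2.95 in WT and -0.82 in DKO. For H2-D1 it differed by 2.23 (SE 0.34, limma adjusted p = 0.0017), with -2.78 in WT and -0.55 in DKO. On the brightest H2-D1 probe set without the cross-hybridisation suffix this difference was 1.06 and not called (limma adjusted p = 0.21), and with only the arrays compared neither gene was called (limma adjusted p = 0.060 for H2-K1 and 0.065 for H2-D1). All 4 of these steps were negative, and the WT step was the larger for both genes. The step from Dex- to Dex+ cells differed by -1.80 for Tap1 (SE 0.44, limma adjusted p = 0.022), with 0.52 in WT and -1.28 in DKO. That call was lost over the mean of its probe sets (-0.39) and when any 1 of 6 arrays was left out.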

How the results depend on the processing

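Each count below is the number of the 8 genes called, with the value as reported first. The count for DKO against WT in ES cells (1) was 0 without cross-hybridising probe sets, after quantile normalization again, with arrays centred on their median, without the dimmest 40% of genes, with scan day as a block and at an adjusted p under 0.01. It was 3 with array weights, with only the arrays compared, without the parental-line arrays and without the transgenic Flk1+ arrays. With the mean of all probe sets, DKO against WT in Dex+ cells went from 3 to 0, PE against ES and Flk1+ against ES in WT each from 3 to 1, Dex+ against Dex- from 2 to 1 in WT and from 1 to 0 in DKO, and the differences between genotypes from 0 to 1 for PE against ES, from 2 to 1 for Dex- against Flk1+ and from 1 to 0 for Dex+ against Dex-. Without cross-hybridising probe sets, which removes H2-K1, DKO against WT gave 1 in Dex- and 1 in Dex+ cells, PE against ES in WT 1, Dex+ against Dex- in WT 0 and the difference for Dex- against Flk1+ 0.

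Flk1+ against ES in DKO (0) gave 1 with arrays centred, with chip lot as a block and with no minimum fold. PE against ES in DKO (5) gave 3 with chip lot as a block and at an adjusted p under 0.01. The lot block draws on the Flk1+ pairs, where lot, line and scan day changed together. Dex+ against Dex- in WT (2) gave 1 with scan day as a block, with only the arrays compared and at an adjusted p under 0.01. Array weights gave 2 for the difference in PE against ES (0) and 2 for that in Dex+ against Dex- (1). With only the arrays compared, Dex- against Flk1+ in WT went from 4 to 2, the difference in PE against ES to 2, that in Dex- against Flk1+ to 0 and that in Dex+ against Dex- to 3. No minimum fold gave 5 for Dex- against Flk1+ in DKO (3), and an adjusted p under 0.01 gave 0 for the difference in Dex+ against Dex-.

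Without the parental-line arrays, DKO against WT in Flk1+ cells went from 0 to 4, Flk1+ against ES in DKO from 0 to 4, Dex- against Flk1+ in DKO from 3 to 5, and the differences to 2 (PE against ES), 1 (Flk1+ against ES), 4 (Dex- against Flk1+) and 3 (Dex+ against Dex-). Psmb9 then reversed in the difference for Flk1+ against ES, from -0.00 to 1.36. Without the transgenic Flk1+ arrays, chosen after seeing the data, DKO against WT in Flk1+ cells gave 1, Flk1+ against ES in WT 5 in place of 3, and the differences 2 (PE against ES), 4 (Flk1+ against ES) and 3 (Dex+ against Dex-). Comparisons that hold no Flk1+ array, such as PE against ES, kept their estimates in these fits. There the arrays left out count only through the spread pooled over all groups. For Psmb8 that spread was widest in Flk1+ cells (SD 1.09 in WT and 1.51 in DKO). In the other groups its SD was 0.70 or less. The causes of the remaining shifts were not tested. Scan day could not be fitted as a block for PE or Flk1+ against ES.

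Leaving out each array in turn gave 0 to 1 for DKO against WT in ES cells, 0 to 2 in Flk1+, 2 in Dex- and 3 in Dex+ cells. It gave 2 to 3 in WT and 3 to 4 in DKO for PE against ES, 2 to 5 and 0 to 4 for Flk1+ against ES, 3 to 5 and 2 to 5 for Dex- against Flk1+, and 1 to 2 and 0 to 1 for Dex+ against Dex-. The differences gave 0 to 1 for Flk1+ against ES, 2 to 3 for Dex- against Flk1+ and 0 to 1 for Dex+ against Dex-. Where a group kept 1 array, it was assumed to vary like the other groups. Over these fits H2-K1 in Dex- cells stayed between 2.22 and 2.28 and H2-D1 between 2.55 and 2.86, DKO against WT.

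Replicate numbers are shared by the groups but not tied to a litter or day in the labels. By the scan records, WT and DKO arrays of equal number shared a scan day and a chip lot in each state. Arrays with the same number deviated together between genotypes (correlations of 0.175 to 0.360) and, in WT Dex- against Flk1+ cells, oppositely (-0.167). With the replicate block no count changed (1, 0, 0, 2 and 3 for DKO against WT in ES, PE, Flk1+, Dex- and Dex+ cells), and the crossed pairing, added after seeing the data, also gave 4 in WT Dex- against Flk1+.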

Other observations

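Probe sets shared by several nonclassical heavy chains also differed between the genotypes, as levels with no test. The brighter probe set of H2-T23 and its pseudogene was at 4.24 and 4.86 in WT Dex- cells and at 6.29 and 5.93 in DKO. With Dex, WT arrays read 5.97 and 6.32 against 7.60 and 7.74 in DKO. The probe set of H2-Q9 and H2-Q7 was at 8.02 in the parental line and 6.62 in the clone of WT Flk1+ cells, and at 6.95 and 8.69 in those of DKO.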
